A study of Saccharomyces cerevisiae with 10 samples.

Results

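The comparison was the removal of KCl from adapted yeast: the level of each transcript 1 h after cells that had grown in 1 M KCl were returned to medium without the salt (during stress recovery, Sample D), minus its level in the adapted cells just before (after stress adaptation, Sample C). It used 4 of the 10 arrays of the series, 2 per group, and covered all 5449 genes of Saccharomyces cerevisiae that the Affymetrix Yeast Genome 2.0 array names by a single symbol. The other 6 arrays held normal growth before the salt (Sample A), cells 1 h after the addition of KCl (Sample B, during stress adaptation) and cells several generations after the return to YPD (Sample E, after stress recovery). All groups came from one haploid strain, given as BQS1350 in the labels and in the study's methods as a MATα BY4742 derivative with a Myc tag on Gcn5, an acetyltransferase of histones, so each group carried the tag. All cultures grew in YPD at 30 °C, and the 2 replicates of each sample were separate culture batches. Adapted cells were pelleted and resuspended at a lower density for Sample D, so the loss of KCl, the fresh medium and the dilution cannot be told apart.

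Budding yeast that meet a high concentration of salt lose water, activate the kinase Hog1 and raise the synthesis of glycerol, which they hold inside the cell by closing the channel Fps1. Return to a medium of low osmolarity reverses the gradient: glycerol leaves through Fps1, water enters, and the stretched wall is sensed by membrane proteins that signal through Pkc1 to the kinase Slt2, which acts on the transcription factor Rlm1. Both phases are accompanied by a pause or delay of the cell cycle and by a change in many genes that answer to stress in general.

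Signals were log2 values, so a difference of 1 is a factor of 2. The median over genes was 9.59 and 9.69 on the Sample D arrays, against 9.62 and 9.89 on the Sample C arrays, and 5287 genes lay above background (the 95th percentile of probe sets for another yeast) on at least 2 of these 4 arrays. Replicates differed by a root mean square of 0.32 in Sample D and 0.42 in Sample C, against 1.04 in Sample B, the least alike pair of the series. The strain check held for the α-specific genes: the receptor STE3 (12.41 and 12.15 in Sample D, 12.27 and 12.60 in Sample C) and the pheromone gene MF(ALPHA)1 (13.75 and 13.59 in Sample D, 13.74 and 13.75 in Sample C) were bright. URA3 and LYS2, deleted in this background, were below the background level, and LEU2, deleted as well, lay just above it (5.69 and 5.38 in Sample D, 5.66 and 5.87 in Sample C). The a-specific genes STE2, BAR1 and MFA1 lay between 6.05 and 7.11 on these arrays, low but not below background. HIS3, mutated in this background, gave 11.03 and 10.94 in Sample D and 10.60 and 10.91 in Sample C. In 7 of 9 control transcripts with probe sets at both ends, the contrast of 3′ over 5′ signal overlapped between Samples D and C, the exceptions being SPT15 (1.72 and 1.90 in Sample D, 1.95 and 1.93 in Sample C) and the 25S rRNA (2.25 and 2.15 in Sample D, 2.11 and 2.01 in Sample C).

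Removal of KCl went with lower levels of most osmotic stress genes and S phase genes. It also went with higher levels of the cell wall kinase gene SLT2, its target PRM5 and the phosphate gene PHM6, whose lists went both ways. These differences did not pass limma's moderated test on all 10 arrays: with one spread estimated over the 5 groups, 0 of 5449 genes had a Benjamini-Hochberg adjusted p under 0.05 (0.0% in each direction), and 270 had an unadjusted p under 0.05. The spread of the Sample B arrays entered that estimate. Without them, 42 genes passed, 12 higher (0.22%) and 30 lower (0.551%). All 42 moved the same way in both batches with no overlap between the groups, which selection by p on these arrays favours. Over all genes, 3520 of 5449 moved the same way in both batches, and 29.5% were lower and 13.7% higher without overlap. Of these 42 genes, 30 also passed when only the 4 arrays of Samples C and D were fitted, and 34 when each array was given a quality weight. All fits compared here share the Sample C and D arrays, so their overlap is no separate support. With the batch as a block on all 10 arrays, 1 gene passed (0.0184%, BSC1, lower). With the batch as a block and without Sample B, 204 passed, 51 higher (0.936%) and 153 lower (2.81%), all of the 42 among them. Below, 2 adjusted p-values follow a difference, from limma on all 10 arrays and then without Sample B, and standard errors (SE) are those of the fit on all 10 arrays with n = 2 per group.

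By size alone, 37 genes (0.679%) were at least 1.8-fold higher and 78 (1.43%) at least 1.8-fold lower in both batches, 1.8-fold being the factor the study used for its own selection. Median centring of the arrays moved the median difference of all genes to 0.02 from -0.09 and turned this split into 49 higher and 53 lower, and quantile normalization gave 50 and 53. Single-gene and list differences are given on the deposited scale. On that scale 1610 genes (29.5%) were lower and 749 (13.7%) higher on both Sample D arrays than on both Sample C arrays, the background for the counts of such genes given for each list.

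**Figure D1:**
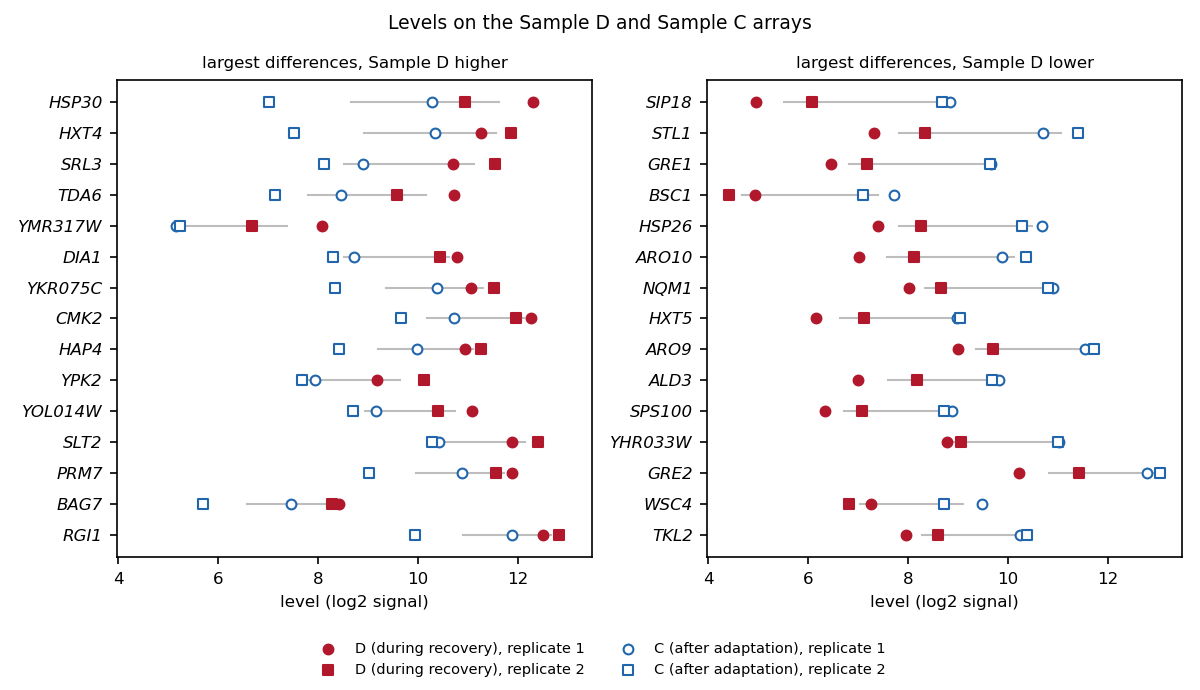
Level (log2 signal, x axis) of the 15 genes with the largest difference in each direction on the 2 Sample D arrays (red, filled) and the 2 Sample C arrays (blue, open), with circles for replicate 1, squares for replicate 2 and a grey line joining the group means. No gene overlaps between groups, but the Sample C replicates lie far apart for HSP30 and HXT4, whereas they nearly coincide for GRE1, HXT5 and SLT2.

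**Figure D2:**
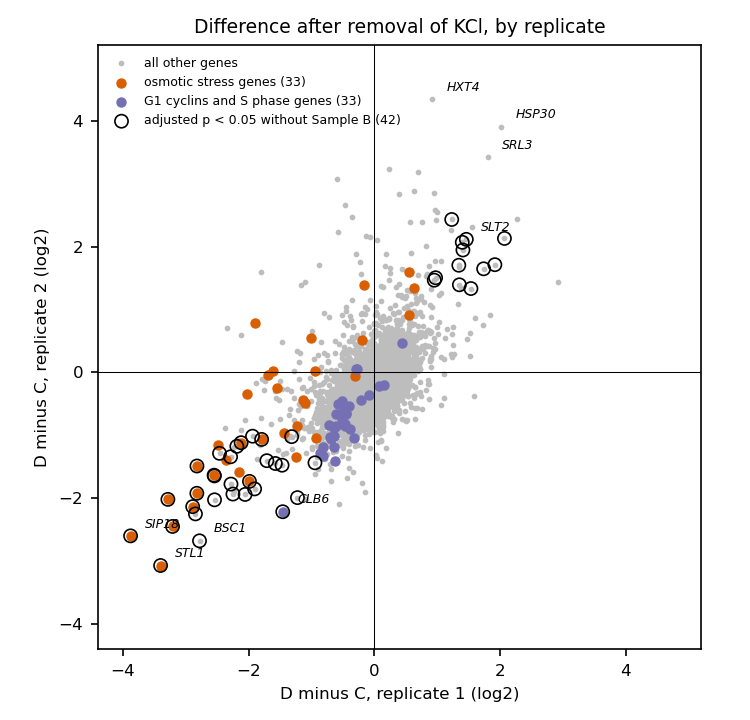
Difference D minus C (log2) of each of the 5449 genes in replicate 1 (x axis) and in replicate 2 (y axis), with 33 osmotic stress genes in orange, 33 G1 and S phase genes in purple and the 42 genes with an adjusted p under 0.05 without Sample B circled. The circled genes lie on one side of 0 in both batches, SIP18 and STL1 lowest, while HXT4 and HSP30 are larger in replicate 2.

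The osmotic stress genes had the lowest median of the 44 lists examined. Of 33 such genes, 24 were lower and 3 higher on both Sample D arrays than on both Sample C arrays, 11 passed as lower without Sample B and none as higher, and the median difference was -1.18, against -0.09 over all genes. With the block and without Sample B, 18 passed as lower and 2 as higher. STL1, the glycerol-proton symporter that imports glycerol under salt, stood at 7.31 and 8.34 in Sample D and 10.71 and 11.41 in Sample C. Both Sample D values lay well below both Sample C values, a 9.42-fold lower mean (-3.24, SE 0.82, adjusted p = 0.682 and 0.00823). SIP18 and GRE1 encode hydrophilins, small hydrophilic proteins linked to water loss. SIP18 gave 4.96 and 6.09 in Sample D and 8.84 and 8.69 in Sample C (-3.24, SE 0.76, adjusted p = 0.682 and 0.0123), and its lower Sample D value was under background. GRE1 gave 6.46 and 7.18 in Sample D and 9.67 and 9.63 in Sample C (-2.83, SE 0.79, adjusted p = 0.813 and 0.00289), with Sample C replicates that nearly coincided.

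The small chaperone gene HSP26 was 6.28-fold lower, with 7.40 and 8.26 in Sample D and 10.68 and 10.28 in Sample C (adjusted p = 0.682 and 0.041). Enzymes of carbonyl and sugar metabolism followed it. NQM1, a second transaldolase, gave 8.02 and 8.67 in Sample D and 10.91 and 10.81 in Sample C (-2.51, adjusted p = 0.711 and 0.00764). ALD3, a cytosolic aldehyde dehydrogenase, gave 7.0 and 8.19 in Sample D and 9.82 and 9.68 in Sample C (-2.16, adjusted p = 0.999 and 0.044). GRE2, a methylglyoxal reductase, was brighter throughout, at 10.23 and 11.42 in Sample D and 12.78 and 13.06 in Sample C (-2.09, adjusted p = 0.693 and 0.0316). In each of these genes every Sample D value was below every Sample C value and the replicate 1 value was the lower one in Sample D. HSP12, which encodes a membrane-stabilising protein, gave 11.79 and 12.78 in Sample D and 14.28 and 13.93 in Sample C. Its difference of -1.82 did not pass without Sample B (adjusted p = 0.927 and 0.263) and passed with the block as well (adjusted p = 0.0195 in limma without Sample B).

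Not every osmotic gene passed, and not every one was lower. The catalase gene CTT1 gave 8.71 and 9.36 in Sample D and 9.85 and 9.80 in Sample C, without overlap but not past the test (-0.79, adjusted p = 1 and 0.352). GCY1, a glycerol dehydrogenase gene, overlapped, at 9.62 and 9.92 in Sample D and 9.81 and 9.41 in Sample C. PUN1, a plasma membrane protein gene, was higher at 12.75 and 12.79 in Sample D and 12.12 and 11.45 in Sample C (0.99, adjusted p = 0.851 and 0.158). YNL194C, of the SUR7 family, had Sample C replicates too far apart to place it (8.77 and 8.74 in Sample D, 10.68 and 7.95 in Sample C).

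Within glycerol synthesis the genes went both ways. The salt-induced isoforms were lower. GPP2, a glycerol-phosphatase gene, gave 11.22 and 12.25 in Sample D and 13.58 and 13.64 in Sample C (-1.87, SE 0.55, adjusted p = 0.851 and 0.115). GPD1, a glycerol-3-phosphate dehydrogenase gene, gave 12.35 and 12.95 in Sample D and 13.58 and 13.80 in Sample C (-1.04, adjusted p = 0.967 and 0.244). Every Sample D value was below every Sample C value in both genes. GPD2, the isoform tied to redox balance, was higher, at 9.02 and 9.26 in Sample D and 8.36 and 8.08 in Sample C (0.92, adjusted p = 0.682 and 0.114). GPP1 was bright in both at 14.28 and 14.28 in Sample D and 14.40 and 14.47 in Sample C. GPP2, GPD1 and GPD2 passed with the block and without Sample B (limma adjusted p = 0.000865, 0.0121 and 0.0217). The channel gene FPS1 stood at 10.34 and 10.57 in Sample D and 10.77 and 11.26 in Sample C (-0.56, adjusted p = 1 and 0.447). DAK1, a dihydroxyacetone kinase gene of glycerol breakdown, stood at 11.45 and 11.85 in Sample D and 12.89 and 12.81 in Sample C (-1.20, adjusted p = 0.682 and 0.0661). The components of the HOG pathway itself had a median of -0.07, which turned to 0.04 after centring, and none of its 27 members passed without Sample B. The phosphatase genes that act on Hog1 lay at its extremes. PTP3 stood at 8.65 and 8.56 in Sample D and 9.39 and 9.74 in Sample C (-0.96), and PTP2 stood at 9.87 and 10.63 in Sample D and 9.44 and 9.43 in Sample C (0.81).

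Several of the lowest genes belonged to nutrient use. ARO9 and ARO10 encode the aminotransferase and the decarboxylase that break down aromatic amino acids. ARO9 gave 9.01 and 9.70 in Sample D and 11.55 and 11.73 in Sample C (-2.28, SE 0.45, adjusted p = 0.534 and 0.00289). ARO10 gave 7.03 and 8.12 in Sample D and 9.87 and 10.37 in Sample C (-2.55, SE 0.54, adjusted p = 0.601 and 0.00764). The means were 4.87-fold lower for ARO9 and 5.85-fold lower for ARO10, without overlap. Of 21 amino acid permease genes, 11 were lower without overlap and 2 higher, and both that passed without Sample B were lower. GAP1, the general permease, stood at 7.18 and 7.57 in Sample D and 8.65 and 9.04 in Sample C (-1.47, adjusted p = 0.534 and 0.0311). PUT4, the proline permease, stood at 6.39 and 6.38 in Sample D and 7.61 and 8.38 in Sample C (-1.61, adjusted p = 1 and 0.0486). Other carriers passed as well. THI7, a thiamine transporter gene, gave 8.75 and 9.36 in Sample D and 11.22 and 10.64 in Sample C (-1.87, adjusted p = 0.534 and 0.0103). FUR4, the uracil permease gene, gave 8.51 and 8.64 in Sample D and 9.82 and 9.66 in Sample C (-1.17, adjusted p = 1 and 0.0382). After the addition of KCl several of these genes had higher means (B minus A), by 3.11 for ARO9, 3.71 for ARO10 and 1.38 for GAP1 (limma adjusted p = 0.0114, 0.012 and 0.0334). PUT4 was higher by 3.61, which did not pass (limma adjusted p = 0.0617). The differences of THI7 and FUR4 did not pass either (0.42 and 1.05, limma adjusted p = 0.575 and 0.356). FUR4 went opposite ways in the 2 batches (2.30 and -0.19). In that comparison 191 genes (3.51%) passed as higher and 49 (0.899%) as lower.

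Among 30 genes of vacuolar proteases and autophagy the median was -0.44, with 16 lower and 4 higher without overlap. PBI2, an inhibitor of the vacuolar protease B, was the member that passed without Sample B, at 9.76 and 9.94 in Sample D and 11.34 and 11.39 in Sample C (-1.51, adjusted p = 0.601 and 0.044). ATG41, which acts in autophagosome formation, ran the other way at 10.92 and 11.69 in Sample D and 9.86 and 9.91 in Sample C (1.41, adjusted p = 0.813 and 0.115). Of 30 oxidative stress genes, 21 were lower and 2 higher without overlap with a median of -0.30, and none passed without Sample B. The glutathione transferase gene GTT1 (-1.24) and the peroxiredoxin genes TSA2 (-1.18) and PRX1 (-1.09) were furthest from 0 in that list.

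BSC1 was the one gene that passed with the block on all 10 arrays (limma adjusted p = 0.0056), and had the smallest adjusted p in the fit on all 10 arrays. It gave 4.94 and 4.42 in Sample D and 7.72 and 7.09 in Sample C (-2.73, SE 0.32, adjusted p = 0.0822 and 0.00289). Both Sample D values were below background, so with the background in their place the mean was at least 4.55-fold lower. In the other samples it stood at 5.68 and 5.61 in Sample A, 5.55 and 5.12 in Sample B and 7.01 and 6.57 in Sample E, so it was highest in Samples C and E and lowest in Sample D.

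The genes of G1 and S phase were lower as a list. Of 33 cyclin, DNA replication and related genes, 27 were lower and 1 higher on both Sample D arrays than on both Sample C arrays, the median was -0.63, and medians by batch were -0.51 and -0.74. The mean over the 33 genes was 9.14 and 9.18 in Sample D and 9.63 and 9.92 in Sample C. CLB6, an S phase cyclin gene, was the one member that passed without Sample B, at 7.80 and 7.72 in Sample D and 9.26 and 9.93 in Sample C (-1.84, SE 0.38, adjusted p = 0.601 and 0.0173). With the block and without Sample B, 10 passed as lower and none as higher, among them RNR1, the large subunit of ribonucleotide reductase (11.47 and 11.06 in Sample D, 12.35 and 12.34 in Sample C, -1.07), and the G1 cyclin gene CLN2 (9.54 and 9.53 in Sample D, 10.36 and 10.72 in Sample C, -1.0). The cohesin gene MCD1 (-0.91), the cyclin gene PCL1 (-1.08) and SWI4, which encodes the DNA-binding subunit of a G1 transcription factor (-1.02), were of like size. The replicates of each sample lay closer to each other than to the other sample for CLN2 and RNR1. Of the mitosis genes, 7 of 22 were lower and none higher without overlap, the lower share being near the 29.5% of all genes. The median of this list was -0.34, and none of its members passed in either fit without Sample B. The core histone genes had a median of -0.07.

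**Figure D3:**
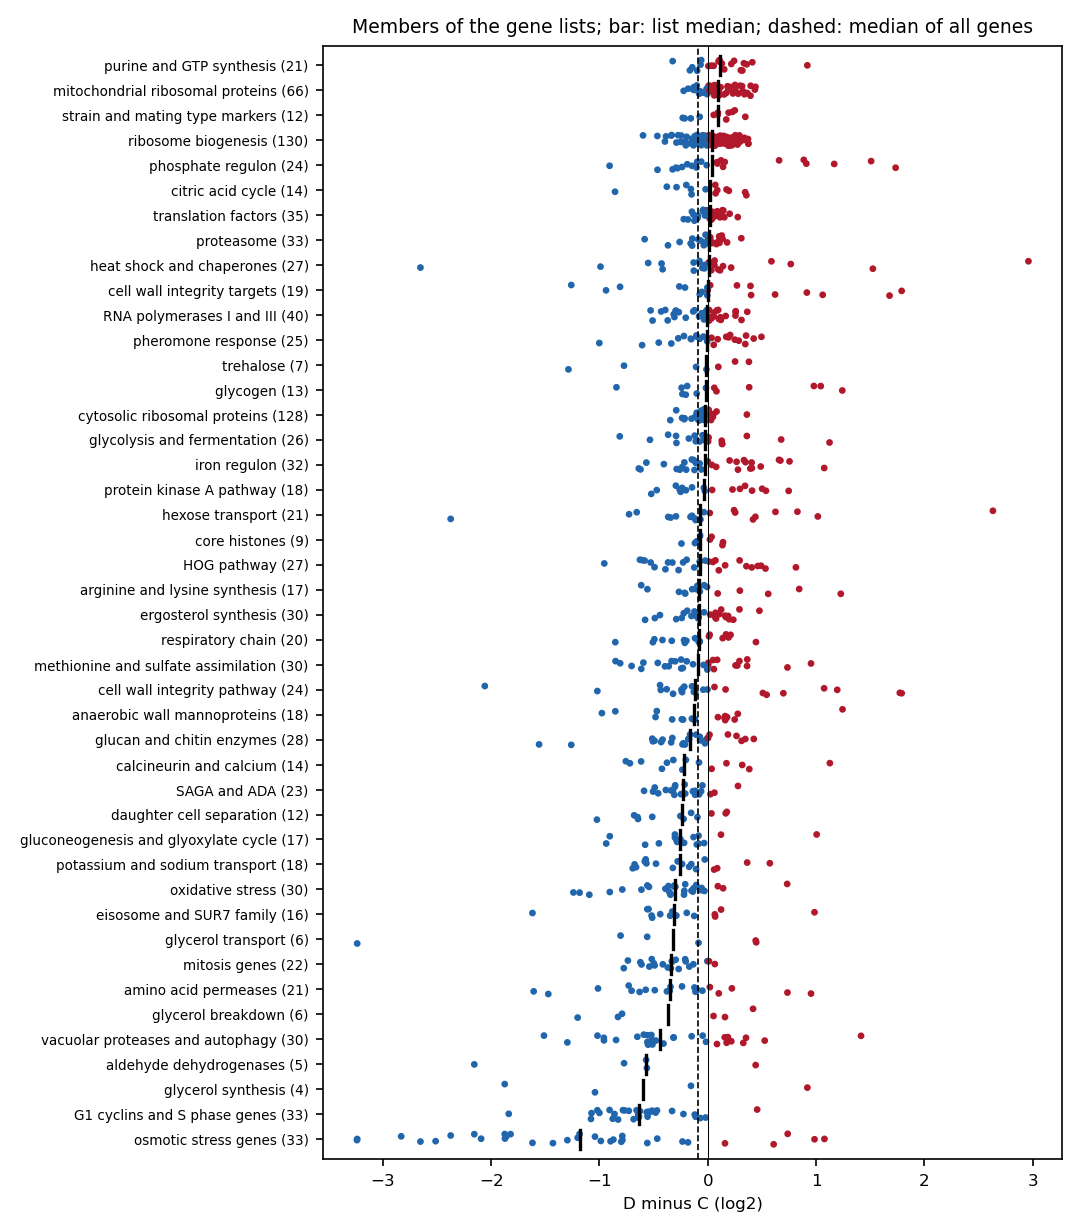
Difference D minus C (log2, x axis) of each member of the 44 gene lists, with the number of measured members in parentheses, red for members above 0 and blue for members below it, a black bar at each list's median and a dashed line at the median of all genes (-0.09). Osmotic stress genes (median -1.18) and G1 and S phase genes (median -0.63) lie at the low end, while the cell wall and phosphate lists hold a few members far above a median near 0.

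Among the genes that were higher in Sample D was SLT2, the kinase of the cell wall integrity pathway. It gave 11.89 and 12.41 in Sample D and 10.43 and 10.29 in Sample C, 3.46-fold higher in mean (1.79, SE 0.46, adjusted p = 0.682 and 0.044). PRM5, a membrane protein gene and a known target of that pathway, gave 11.20 and 11.74 in Sample D and 9.80 and 9.79 in Sample C (1.68, SE 0.49, adjusted p = 0.851 and 0.0456). In both genes the Sample C replicates nearly coincided and the gap to Sample D was wider than that between the Sample D replicates. RLM1, the transcription factor that Slt2 activates, stood at 9.0 and 9.82 in Sample D and 8.17 and 8.26 in Sample C (1.19, adjusted p = 0.914 and 0.115) and passed with the block and without Sample B (limma adjusted p = 0.00695). BAG7, which encodes a GTPase-activating protein for Rho1, and MTL1, a sensor gene, were higher in mean, but with widely spaced Sample C replicates (8.42 and 8.28 in Sample D, 7.45 and 5.71 in Sample C for BAG7; 8.05 and 8.66 in Sample D and 8.01 and 6.55 in Sample C for MTL1).

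The components of the pathway went both ways. Of its 24 components, 7 were higher and 6 lower without overlap, and the median of -0.12 turned to 0.03 after quantile normalization. WSC4, of the WSC sensor family, was lower at 7.26 and 6.82 in Sample D and 9.49 and 8.71 in Sample C (-2.06, adjusted p = 0.999 and 0.263). Among 19 target genes of the pathway, 6 were higher and 5 lower without overlap. GSC2, a glucan synthase gene, was lower at 10.48 and 10.95 in Sample D and 12.28 and 11.66 in Sample C (-1.26, adjusted p = 0.851 and 0.0762). The yapsin gene YPS3 was higher at 11.04 and 10.86 in Sample D and 10.52 and 9.55 in Sample C (0.91, adjusted p = 1 and 0.277). YPK2, a kinase gene outside these lists, gave 9.18 and 10.12 in Sample D and 7.95 and 7.69 in Sample C (1.83, SE 0.32, adjusted p = 0.447 and 0.0173). Genes tied to calcium were mixed. CMK2, a calmodulin-dependent kinase gene, was higher at 12.28 and 11.97 in Sample D and 10.72 and 9.66 in Sample C (1.94, adjusted p = 0.682 and 0.097), and so was RCN2, a calcineurin regulator gene, at 11.61 and 11.47 in Sample D and 10.58 and 10.25 in Sample C (1.13). The calcium channel gene CCH1 was lower at 9.17 and 9.45 in Sample D and 9.93 and 10.20 in Sample C (-0.76).

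Phosphate genes went both ways. PHM6, a gene of the PHO regulon, gave 9.84 and 10.11 in Sample D and 8.45 and 8.04 in Sample C (1.73, SE 0.45, adjusted p = 0.682 and 0.00764). PHO5, the secreted acid phosphatase, gave 10.85 and 11.02 in Sample D and 9.50 and 9.34 in Sample C (1.51, adjusted p = 0.682 and 0.0689). PHO89, a sodium-phosphate cotransporter gene, gave 12.64 and 12.99 in Sample D and 11.57 and 11.72 in Sample C (1.17, adjusted p = 0.969 and 0.101). All 3 were higher in Sample D without overlap. PHO4, the regulon's activator, was lower instead, at 8.52 and 9.10 in Sample D and 9.39 and 10.05 in Sample C (-0.91, adjusted p = 1 and 0.343). Of the 24 phosphate genes, 1 passed without Sample B, and 4 as higher and 1 as lower with the block as well, around a list median of 0.04. FRE7, a metalloreductase gene, gave 6.86 and 7.12 in Sample D and 5.13 and 5.47 in Sample C (1.69, SE 0.41, adjusted p = 0.682 and 0.0103), with replicate 1 of Sample C below background. The iron regulon had a median of -0.03 with no member past the test in either fit without Sample B.

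Others that passed as higher without Sample B were NRG1, a repressor that acts in glucose repression (9.65 and 9.68 in Sample D, 8.69 and 8.21 in Sample C), ECL1, linked to lifespan (12.12 and 12.47 in Sample D, 11.14 and 10.96 in Sample C), and the genes of little known function DIA1 (10.79 and 10.44 in Sample D, 8.72 and 8.31 in Sample C), YOL014W (11.09 and 10.41 in Sample D, 9.17 and 8.70 in Sample C), YDL241W (10.70 and 10.31 in Sample D, 9.16 and 8.98 in Sample C) and YHR214C-E (6.49 and 6.79 in Sample D, 5.14 and 5.40 in Sample C). The difference for DIA1 was 2.10 (adjusted p = 0.682 and 0.0275), the largest of the 12. The heat shock genes went both ways. HSP42, a small chaperone gene like HSP26, was higher at 10.87 and 11.39 in Sample D and 9.52 and 9.69 in Sample C (1.52, adjusted p = 1 and 0.0486), and the median of 27 such genes was 0.01.

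In several of the largest higher means the Sample C replicates were far apart. HSP30, which encodes a regulator of the proton pump, had the largest positive difference, with 12.30 and 10.94 in Sample D and 10.29 and 7.03 in Sample C (2.96, SE 1.03, adjusted p = 0.914 and 0.155). HXT4, a glucose transporter gene, gave 11.27 and 11.86 in Sample D and 10.35 and 7.51 in Sample C (2.63, SE 1.15, adjusted p = 0.999 and 0.195). The gap between the Sample C replicates exceeded the distance of the nearer one to Sample D in both genes. HAP4, an activator of respiratory genes (10.94 and 11.28 in Sample D, 9.99 and 8.42 in Sample C), and RGI1, of respiratory growth (12.52 and 12.83 in Sample D, 11.89 and 9.94 in Sample C), were higher in mean as well. Over all genes, 13 differed by more than 4-fold between the Sample C replicates, 12 of them higher in replicate 1, against 1 between the Sample D replicates. Of the 15 largest higher means 4 passed without Sample B, against 14 of the 15 largest lower means. With the block as well, 13 of the higher and 15 of the lower passed, HSP30 and HXT4 among them (limma adjusted p = 0.00837 and 0.017). Hexose transporter genes went both ways, HXT5, a transporter of slow growth, being lower at 6.16 and 7.11 in Sample D and 8.98 and 9.03 in Sample C (-2.37, adjusted p = 0.882 and 0.00776).

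The 130 ribosome biogenesis genes had a median of 0.04, with 27 higher and 24 lower without overlap, and no member passed in either fit without Sample B. The 128 cytosolic ribosomal protein genes lay between -0.35 and 0.36, and 66 mitochondrial ribosomal protein genes had a median of 0.09 with 14 higher and none lower without overlap. For potassium and sodium transport the median was -0.26, and no member of 18 passed without Sample B. ENA5, a sodium pump gene whose probe set may also read its near-identical neighbours, stood at 11.72 and 11.67 in Sample D and 12.19 and 12.52 in Sample C (-0.66, adjusted p = 1 and 0.32). HAL5, a kinase gene that supports potassium uptake, stood at 10.33 and 10.22 in Sample D and 9.56 and 9.84 in Sample C (0.57, adjusted p = 1 and 0.367). Storage sugar genes were near 0 in the median (-0.01 for 7 trehalose genes, -0.02 for 13 glycogen genes), apart from the trehalase gene ATH1 (7.26 and 8.07 in Sample D, 8.22 and 9.69 in Sample C, -1.29) and the glycogen synthase gene GSY1 (a difference of 1.24). GCN5 itself gave 7.82 and 8.33 in Sample D and 8.23 and 8.89 in Sample C (-0.49, adjusted p = 1 and 0.606), with overlap, and the 23 genes of SAGA and ADA had a median of -0.23 with none past the test.

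**Figure D4:**
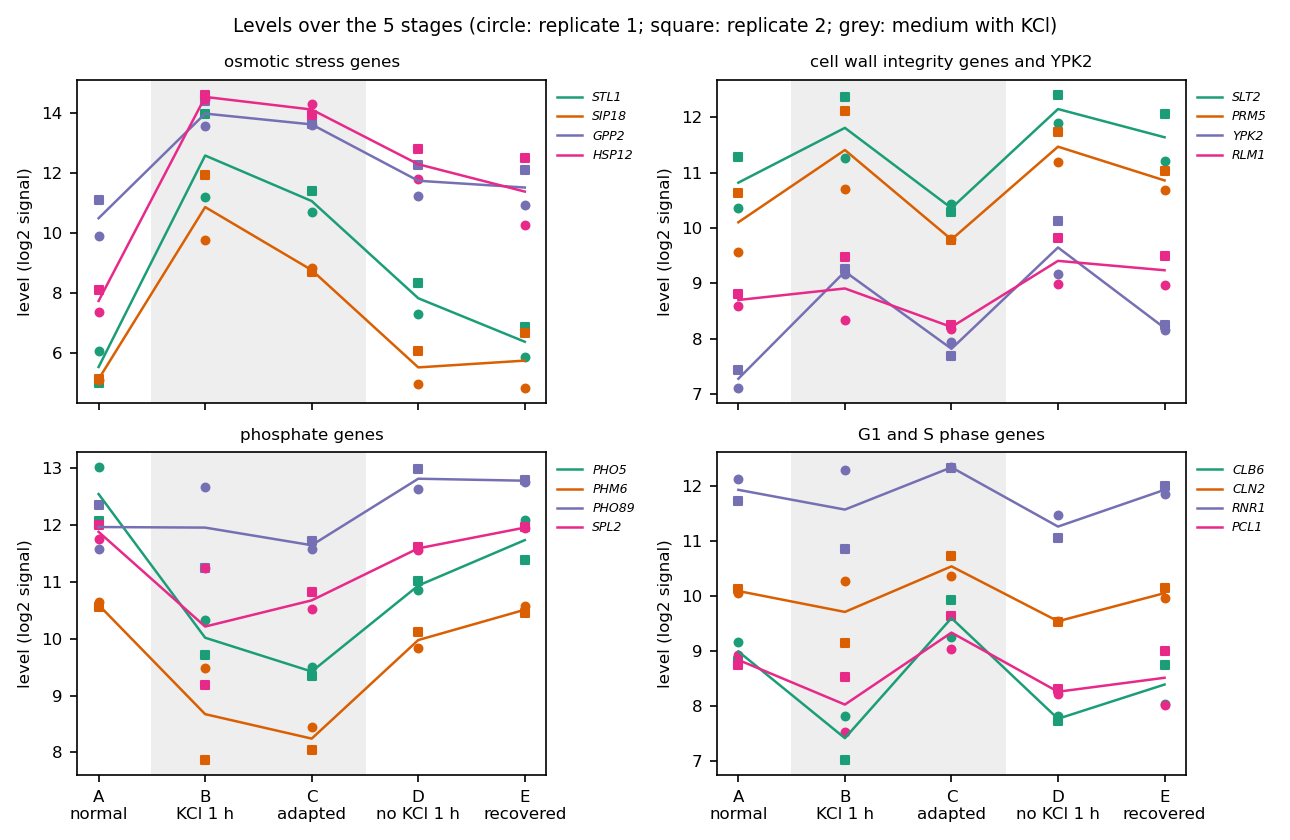
Level (log2 signal) of 4 genes of each of 4 groups over the stages A to E, with circles for replicate 1, squares for replicate 2, lines through the group means and grey shading for medium with KCl. Osmotic genes such as STL1 are high in B and C and lower in D, SLT2 and PRM5 are lower in C than in D, and CLB6 is high in C and low in D.

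Set against all stages, 28 of the 33 osmotic genes had a mean in Sample D between those of Samples C and A, and 5 had a higher mean in Sample D than in Sample C. All 33 had a higher mean in Sample D than in Sample A, by a median of 1.11, against -0.12 over all genes. The list was written with earlier results of these data known, and its median C minus A was 2.57. That choice favours such counts, so they are no separate support. The mean over the list was 9.25 and 9.93 in Sample D, 10.90 and 10.66 in Sample C, 8.04 and 8.31 in Sample A, and 8.37 and 9.33 in Sample E. STL1 illustrates the order, with 6.06 and 5.02 in Sample A, 11.21 and 13.94 in Sample B, 5.88 and 6.87 in Sample E and the Sample D values between those of C and E. PHM6 and PHO5 were low under salt: PHM6 gave 10.64 and 10.55 in Sample A, 9.49 and 7.86 in Sample B and 10.57 and 10.45 in Sample E, and PHO5 gave 13.02 and 12.07 in Sample A, 10.32 and 9.70 in Sample B and 12.08 and 11.39 in Sample E. SLT2 differed, with 10.36 and 11.28 in Sample A, 11.26 and 12.36 in Sample B and 11.22 and 12.06 in Sample E, so the Sample C values were close to replicate 1 of Sample A and below the others.

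Removal and addition of KCl were compared at the same time after a change of medium, as (D minus C) minus (B minus A), where the differences share no array. Per the study's methods, KCl was added with an equal volume of salt medium but removed by pelleting the cells, so handling differed as well. In limma on all 10 arrays 80 genes passed, 7 higher (0.128%) and 73 lower (1.34%). By the sign of the mean, 71 of these 80 were lower after removal and higher after addition, 7 the reverse, 1 higher in both and 1 lower in both. Some of the 71 were near 0 after removal (GSM1 -0.04, PRM10 -0.07) or went opposite ways in the 2 batches (XBP1 -2.11 and 0.59). Such genes passed mainly through their change on addition. Because a change reversed on removal adds to this contrast, passing does not mark a response particular to removal. Quantile normalization gave 167 genes, 44 higher and 123 lower. The count rests on single arrays: it was 0 without either Sample A array, 0 without Sample D replicate 1, 1 without Sample C replicate 1, 43 without Sample C replicate 2 and 50 without Sample D replicate 2, and it reached 1400 when Sample B was represented by replicate 2 alone and 228 by replicate 1 alone. With the batch as a block it was 280, 30 higher and 250 lower. STL1 had the lowest value at -10.27 (SE 1.16, adjusted p = 0.0149), with -3.24 after removal and 7.04 after addition. Replicate 2 of Sample A was below background for STL1, and with the background in its place the value was -10.08. PHO5 had the highest at 4.04 (SE 0.54, adjusted p = 0.0149), with 1.51 after removal and -2.53 after addition. Of the 33 osmotic genes, 22 passed as lower. That list was written with earlier results of these data known, and its median B minus A was 4.53. A high B minus A lowers this contrast by itself, so the count is no separate support.

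**Figure D5:**
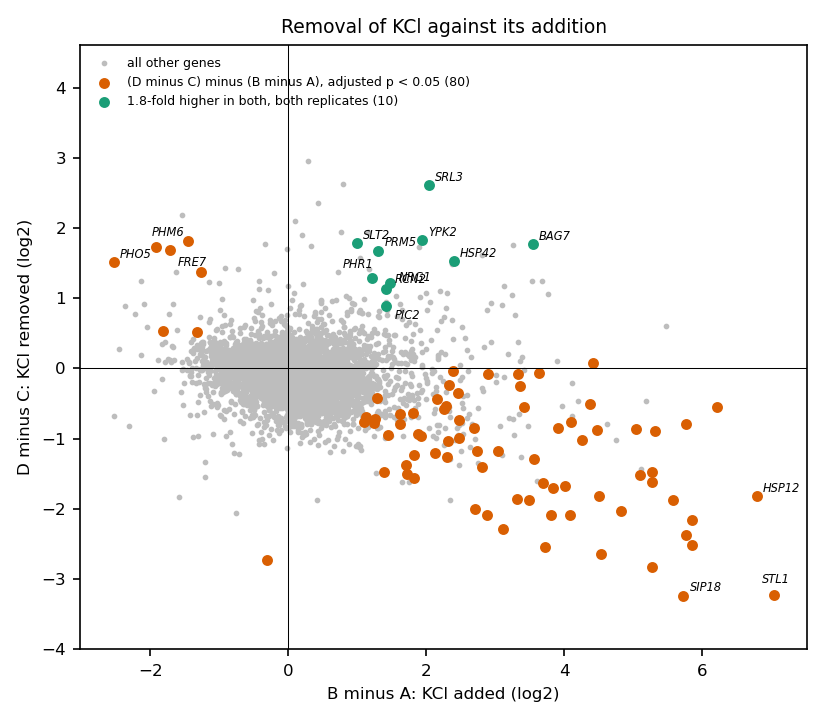
Difference after removal of KCl (D minus C, log2, y axis) against that after its addition (B minus A, log2, x axis) for 5449 genes, with the 80 genes whose differences differ in limma in orange and the 10 genes at least 1.8-fold higher after both changes in both batches in green. Most orange genes lie to the lower right, STL1 and SIP18 furthest, and the green group includes SLT2, PRM5 and YPK2.

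By size, a smaller set was higher after both changes. At 1.8-fold in both batches, 354 genes were higher after addition of KCl. Of the 37 higher after removal, 10 were among these and 5 were among the 108 that were lower after addition. Of the 78 lower after removal, 49 were higher and 2 lower after addition. The 10 were BAG7, HSP42, NRG1, PHR1, PIC2, PRM5, RCN2, SLT2, SRL3 and YPK2. For B minus A, 3 of them passed in limma on all 10 arrays, BAG7, NRG1 and YPK2 (adjusted p = 0.0226, 0.0226 and 0.0174). The other 7 did not, SLT2 (0.28) and PRM5 (0.188) among them, and for SLT2 the values of Samples B and A overlapped. For D minus C, 5 of the 10 passed without Sample B (HSP42, NRG1, PRM5, SLT2 and YPK2) and none in the fit on all 10 arrays. SRL3, known as a suppressor of checkpoint mutants, gave 10.70 and 11.55 in Sample D and 8.90 and 8.13 in Sample C (2.61, limma adjusted p = 0.682 and 0.0689). It gave 10.13 and 11.10 in Sample B and 7.66 and 9.49 in Sample A (2.04). YPK2 gave 9.17 and 9.26 in Sample B and 7.11 and 7.44 in Sample A (1.94), beside 1.83 after removal.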

How the data were processed

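Total RNA of a haploid yeast strain was hybridised to 10 Affymetrix Yeast Genome 2.0 arrays, 2 per group, and 4 of them (Samples D and C) form the comparison. The deposited values are log2 signals, which the authors made with RMA (background correction, quantile normalization and summary of probes, which compress the differences of dim genes) in Affymetrix Expression Console, per the labels. The sources used here name no version and do not say whether all arrays were run together. Of 10928 probe sets, 213 controls and those without a single S. cerevisiae symbol were left out, the brightest of several probe sets was kept for 47 genes, and 5449 genes remained. No further normalization was applied. Names came from the platform annotation, with current symbols from RefSeq, and no coordinates were used.

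Groups were compared with limma 3.58.1 in R 4.3.3 (1 coefficient per group, all 10 arrays, eBayes, two-sided, Benjamini-Hochberg over 5449 genes, threshold 0.05). The fit was also run on simulated data in which a gene had the same spread on every array. That simulation does not cover the wider spread of Sample B. With 2 arrays per group, their number limits the precision. Replicate numbers mark culture batches in the labels, and same-numbered arrays deviated together from their group means (r between 0.22 and 0.52 over genes in 10 pairs of groups, median 0.43), so the batch was taken as a block in an alternative fit. Other alternatives left out single arrays or the Sample B arrays, fitted Samples C and D alone, weighted arrays, allowed a trend in the variance, renormalized, filtered dim genes or adjusted over all probe sets. The combinations of the block with renormalization or with single arrays left out, and the raising of values below background to it, were chosen after seeing the data.

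The members, the 44 gene lists (1147 distinct members) and the fit without Sample B were chosen with earlier results of these data known, so list counts are descriptions without a test. Genes were named as the 15 largest differences in each direction, up to 6 of each list, the 6 largest differences of differences in each direction, GCN5 and the strain markers. Genes named because they passed without Sample B, or were higher after both changes, were chosen after their values were seen.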

Additional observations from a re-analysis of the deposited data

Results flagged for a closer look

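The response to removal of KCl differed from the response to its addition in 80 genes (limma on all 10 arrays, adjusted p under 0.05 for the difference of the differences, on the log2 scale). A gene whose change on addition was simply reversed on removal can also pass this contrast. By the sign of the mean, 71 of the 80 were lower after removal and higher after addition, and 7 the reverse. Some of the 71 were near 0 or went opposite ways in the 2 batches after removal. At the high end stood PHO5 (4.04), PHM6 (3.65), FRE7 (3.41), YOL014W (3.27), YHR214C-E (2.64) and FPR4 (2.35), each higher after removal and lower after addition. At the low end stood STL1 (-10.27), SIP18 (-8.96), HSP12 (-8.61), NQM1 (-8.36), HXT5 (-8.13) and GRE1 (-8.10), each lower after removal and higher after addition. SIP18 was below background on both Sample A arrays and on Sample D replicate 1, and STL1 on Sample A replicate 2. With the background in place of such values SIP18 stood at -8.38, a lower limit on its size, and STL1 at -10.08, so the order of SIP18 and HSP12 is not settled. FRE7 (2.98) and YHR214C-E (2.55) were limited by background in the same way. The Sample B replicates were far apart for some of them (9.97 and 12.98 for GRE1), and that spread enters both the difference and its error.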

How the results depend on the processing

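The count of genes that passed for D minus C was 0 in the fit on all 10 arrays and stayed at 0 after quantile normalization, median centring, the filter on dim genes, adjustment over all probe sets and a variance trend. It was 1 with the replicate block, 38 with Samples C and D alone, 518 with the replicate block in these groups alone, 56 with array weights, 42 without Sample B and 204 with the replicate block and without Sample B. The fit that gave 518 used only the 4 Sample C and D arrays with a block. That leaves little from which to estimate each gene's spread. Leaving out 1 array gave 0 to 42 without the block and 0 to 204 with it, the upper ends being the fits without either Sample B array, where the remaining one adds nothing to the spread. With the block the count was 1 without Sample C replicate 2 (HSP26) or without either Sample A array (BSC1). No gene named among the 30 largest differences changed direction under any setting. These genes were chosen as large differences in the same direction in both batches. Their direction was therefore largely fixed by the selection, and its stability is no separate support.

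For (D minus C) minus (B minus A), the count of 80 became 280 with the replicate block, 134 with the block and without Sample E, 167 after quantile normalization and 144 after median centring, and 0 to 1400 when 1 array was left out. The 115 genes past 1.8-fold in both batches became 70 at 2-fold. Of the 44 list medians, 15 changed sign after centring and 11 after quantile normalization, none of them for the osmotic, G1 and S phase, mitosis, permease, vacuolar or oxidative lists. Signals near background limit the size of differences for dim genes such as BSC1 and SIP18. The causes of these changes were not tested.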
